A study of Caenorhabditis elegans with 12 samples.

Results

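The comparison described here is that of fluvastatin with control in wild-type Caenorhabditis elegans. It rests on 6 of the 12 libraries of the series, 3 from worms kept on plates with 1 mM fluvastatin for 9 h from the fourth larval stage (L4) and 3 from worms kept on plates with 0 mM for the same time. All 6 come from whole worms pooled over several plates, grown from the first larval stage on agar seeded with OP-50 bacteria and washed before and after the exposure. Neither the strain name nor a solvent for the control plates is stated in the labels used here. The other 6 libraries are those of a dlk-1 mutant at the same doses, whose titles name it as lacking p38. They entered the same fit, and so had a part in the filter, the replicate term and the spread behind every wild-type call. Their own changes serve below only to be set beside those of wild type.

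Fluvastatin is a statin. Statins inhibit HMG-CoA reductase, the enzyme that commits carbon to the mevalonate pathway, from which cells make the isoprenoids that anchor small GTPases to membranes and that go into ubiquinone and dolichol. Nematodes take sterols from their food and do not make cholesterol, so the worm's pathway yields isoprenoids but no sterols. A foreign compound is typically oxidised by cytochrome P450 enzymes, joined to a sugar or to glutathione by transferases and exported by ATP-driven pumps, and in worms much of this takes place in the intestine under the control of nuclear hormone receptors.

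The wild-type libraries held 9370975 to 11937829 reads, counted with 1 transcript model per gene, and 18770 to 19683 genes had reads. Replicate 2 stood apart in both groups. In a principal component analysis of the 6 wild-type libraries, the first component (64.2% of the variance) placed control 2 at 85.3 and fluvastatin library 2 at 90.3, with the other 4 libraries between -54.6 and -33.2. Fluvastatin parted from control on the second component (17.5%), with the treated libraries at 29 to 36 and the controls at -44.3 to -19.9. Summed reads of 66 sperm genes were 38632, 15267 and 53997 in controls 1, 2 and 3 and 38587, 16005 and 46111 in the fluvastatin libraries, so that replicate 2 was low in both groups. Libraries were therefore compared within replicate numbers, by a replicate term in the fit. Whether the 3 replicates of a group grew as separate cultures is not stated, so a p-value here reflects only how these libraries vary, and that variation may be technical.

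Genes called higher included many for the handling of foreign compounds, for folding in the endoplasmic reticulum and for defence, and those called lower included yolk, cuticle, lysozyme and secreted peptide genes. Of 15529 genes tested with limma, 586 (3.77%) rose and 505 (3.25%) fell, at an adjusted p under 0.05. With no replicate term the same test called 282 genes (1.82%), 216 higher and 66 lower, all of them among the 1091. Without replicate number 3 the count of rises was 377. The count of falls was 313 without replicate number 2, 216 without number 3, 336 without control 2, 276 without control 3 and 309 without fluvastatin library 3.

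Rises were larger than falls in size. The median log2 change of the genes that rose was 0.91, and 271 of them rose at least 2-fold, 123 at least 4-fold and 36 at least 16-fold. The median of the falls was -0.63, with 136, 28 and 2 genes past the same limits. All 586 rises had the same direction in each of the 3 pairs, and so did 504 of the 505 falls. Pair by pair the median log2 change of the rises was 0.91, 0.82 and 0.98 and that of the falls -0.58, -0.56 and -0.71, with the median of all tested genes between -0.001 and 0.009. These directions follow in part from the call. The 3 treated libraries lay wholly above or below the 3 controls for 461 of the rises and 319 of the falls, against 1393 (8.97%) of all tested genes in either direction. The genes that rose took 2.87% of all reads in the controls and 4.90% with fluvastatin, and those that fell 5.34% and 3.95%. A log2 change here is that of normalised reads plus 1, which understates the change of genes with few reads, and 51 of the rises had a control mean under 10.

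**Figure D1:**
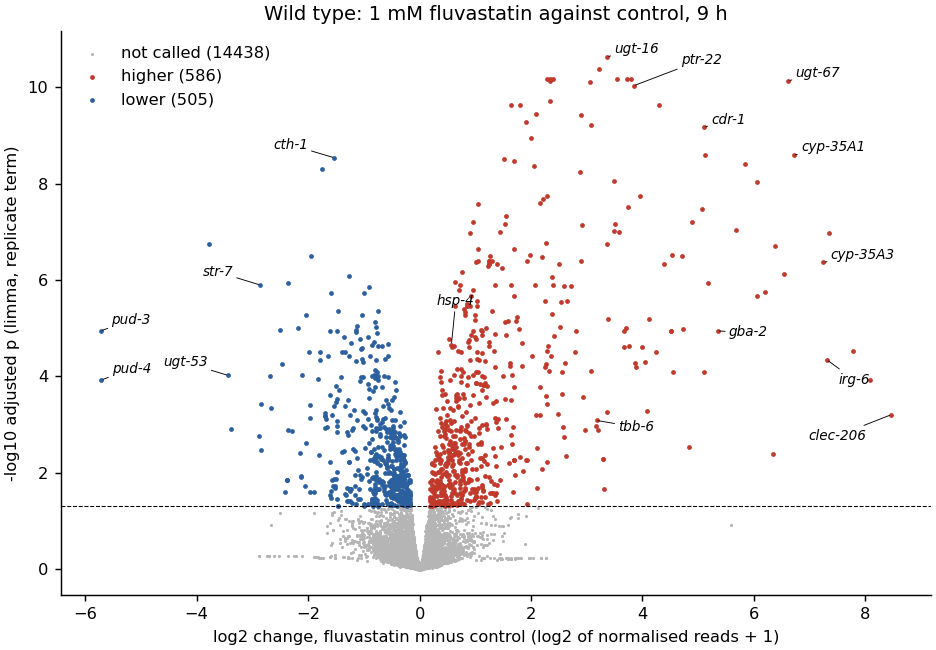
Change of each of 15529 genes in wild type. The x axis is the log2 change, fluvastatin minus control, on the scale of log2(normalised reads + 1), and the y axis is the negative log10 of the adjusted p from limma with the replicate term; the dashed line is the threshold of 0.05. The 586 red points are higher and the 505 blue points lower with fluvastatin, and the far right holds more points than the far left.

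Cytochrome P450 genes, whose enzymes oxidise foreign and endogenous compounds, gave several of the largest rises. Of 62 tested, 24 rose and 7 fell (18 and 1 with no replicate term). The median log2 change of the whole list was 0.13, against 0.006 for all tested genes. Members of the cyp-35 group led it. cyp-35A3 had 13.1, 9.95 and 10.7 normalised reads in the controls and 1945, 1487 and 2175 with fluvastatin. cyp-35A1 had 5.22, 6.33 and 5.93 normalised reads in the controls and 798, 577 and 793 with fluvastatin. Both were close to silent in all 3 controls, and no treated library came near a control. The log2 changes were 7.25 ± 0.29 (SE, n = 3 per group; adjusted p = 4.3e-07) and 6.72 ± 0.25 (adjusted p = 2.55e-09). The most abundant of the group with fluvastatin was cyp-35C1, at 238, 232 and 185 normalised reads in the controls and 6059, 4924 and 6254 with fluvastatin (log2 4.71 ± 0.16). Reads may be shared among these close paralogs. Summed over the 62 genes, normalised reads were 8661, 9581 and 8133 in the controls and 26569.5, 23387 and 27264 with fluvastatin, higher in every pair. Without replicate number 3 the list had 20 rises and 4 falls. The largest falls, named after their values were seen, were those of cyp-34A2 (log2 -2.36) and cyp-14A1 (-1.67), so that the family did not move as one. cyp-34A2 and cyp-14A1 were called only with the replicate term.

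Short-chain dehydrogenases, which reduce or oxidise steroids, retinoids and foreign carbonyls, had 4 rises and 2 falls among 31 tested genes, with a list median of -0.035 (2 rises and 0 falls with no replicate term). dhs-23 was far from the rest, with 41.8, 19.9 and 29.7 normalised reads in the controls and 2012, 1146 and 2258 with fluvastatin (log2 5.85 ± 0.19, adjusted p = 3.85e-09). dhs-5 rose by 1.03 ± 0.12, with non-overlapping groups, and the other called members moved by less. Leaving out libraries moved these small counts to between 2 and 4 rises and between 1 and 4 falls; 1 fall was left without replicate number 1, without number 3, without control 3 or without fluvastatin library 3, and 4 were called without number 2, while 2 rises were left without number 3.

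Carboxylesterases, which split ester bonds in drugs and lipids, and flavin monooxygenases had 7 rises and 4 falls among 37 tested genes (4 and 1 with no replicate term, 4 rises without replicate number 1). cest-33 had 733, 704 and 694 normalised reads in the controls and 3774, 2970.0 and 3796 with fluvastatin. Its controls lay within a narrow band and its log2 change of 2.295 ± 0.069 was among the 10 of lowest p (adjusted p = 6.81e-11). cest-35.1 rose by 3.38 ± 0.22 and cest-35.2, its neighbour on chromosome V, by 6.35 ± 0.79. cest-35.2 was not called without replicate number 1 (adjusted p of 0.132). cest-28 fell, from 135, 118 and 152 normalised reads in the controls to 36.8, 54.1 and 47.1 (log2 -1.54 ± 0.22).

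UDP-glucuronosyltransferases join a sugar to small molecules and make them soluble. Of 61 tested, 27 rose and 6 fell (23 and 2 with no replicate term), and the median log2 change of the list was 0.35, the highest of the detoxification lists. ugt-16 had the lowest p of all genes, with 177, 123 and 171 normalised reads in the controls and 1745, 1194 and 1991 with fluvastatin (log2 3.37 ± 0.081, adjusted p = 2.33e-11). ugt-22 was already abundant and had 1988, 2031 and 2059 normalised reads in the controls and 5746, 5095 and 6679.6 with fluvastatin (log2 1.52 ± 0.068); it overlaps srz-29, whose reads this kit, which does not mark strand, cannot part from its own. ugt-67, ugt-10 and ugt-33 rose from control values of at most 13.9 normalised reads by 6.62 ± 0.21, 6.05 ± 0.30 and 5.06 ± 0.27. ugt-53 went the other way, with 128, 185 and 104.4 normalised reads in the controls and 11.04, 29.2 and 4.49 with fluvastatin (log2 -3.44 ± 0.36). Neither its groups nor those of the 5 rises overlapped. The list's summed reads were 17622, 15727 and 17282 in the controls and 35349, 29163 and 35729 with fluvastatin. Between 23 and 25 rises were called in the 9 leave-outs, which drop either all 4 libraries of a replicate number or 1 wild-type library.

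Glutathione S-transferases moved less. Of 38 tested, 6 rose and 4 fell (3 and 0 with no replicate term), with a list median of -0.011. gst-5 had 282, 204 and 329 normalised reads in the controls and 1414, 1029 and 1729 with fluvastatin (log2 2.35 ± 0.081, adjusted p = 1.91e-10); it overlaps nos-1. gst-21 rose by 3.37 ± 0.40 and was not called without replicate number 1 (adjusted p of 0.0635). gst-4, a common reporter of the SKN-1 oxidative stress response that overlaps dhs-12, fell (log2 -0.46 ± 0.13) and was not called without replicate number 1, 2 or 3, control 2 or 3 or fluvastatin library 1 or 3 (adjusted p up to 0.416). Rises numbered 3 without replicate number 1, 3 without number 2 and 4 without number 3, and falls 2 without number 3. gst-4 was called only with the replicate term.

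Export pumps of the ABC family had 11 rises and 5 falls among 52 tested genes (3 and 1 with no replicate term). pgp-1, a P-glycoprotein, had 111, 76.0 and 76.0 normalised reads in the controls and 615, 599 and 593 with fluvastatin, a log2 change of 2.79 ± 0.23. pgp-3, an intestinal P-glycoprotein, had 604, 411 and 512 normalised reads in the controls and 2233, 1359 and 2226 with fluvastatin (1.91 ± 0.073, adjusted p = 5.14e-10). In every pair the treated library held several times the reads of its control, and replicate 2 was the lower one in both groups. pgp-14 rose by 1.54 ± 0.17, and its reads cannot be parted from those of nhr-27, which it overlaps. pgp-11 fell (log2 -1.17 ± 0.17). Without replicate number 3 there were 7 rises, and the falls numbered 3 without replicate number 1, number 2 or fluvastatin library 1. pgp-14 was called only with the replicate term.

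Nuclear hormone receptors, the transcription factors through which worms sense lipids and foreign compounds, had 26 rises and 2 falls among 183 tested genes (10 and 1 with no replicate term). Most of the rises were small in reads. nhr-178 had 3.48, 4.52 and 3.56 normalised reads in the controls and 22.1, 30.2 and 31.4 with fluvastatin (log2 2.56 ± 0.35); it overlaps F16B4.2. nhr-205 had 13.1, 17.2 and 21.4 normalised reads in the controls and 93.9, 56.2 and 140.3 with fluvastatin (log2 2.36 ± 0.26), and nhr-237 changed by 2.28 ± 0.24. The groups did not overlap for these 3 genes. nhr-176, a receptor tied to the metabolism of thiabendazole in worms, had 57.4, 55.2 and 53.4 normalised reads in the controls and 134, 123 and 117 with fluvastatin (1.16 ± 0.14). Without replicate number 1, and without fluvastatin library 3, 17 receptors rose; the falls were 3 and 1 in those settings, and 1 without replicate number 2. Of 27 regulators of xenobiotic and stress responses, 7 of which are nuclear hormone receptors, 8 rose and 0 fell. nhr-176 is 1 of the 8 and was the only one called with no replicate term; the other 7 rose by a log2 under 0.6. pqm-1 rose by 0.47 ± 0.076. cebp-1 rose by 0.55 ± 0.15 and was not called without replicate number 1 or 3, control 2 or 3 or fluvastatin library 1 or 3 (adjusted p up to 0.339). The count of 8 became 4 without replicate number 1 or 2, 3 without number 3 and 5 without control 2 or fluvastatin library 1. pqm-1 and cebp-1 were called only with the replicate term.

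**Figure D2:**
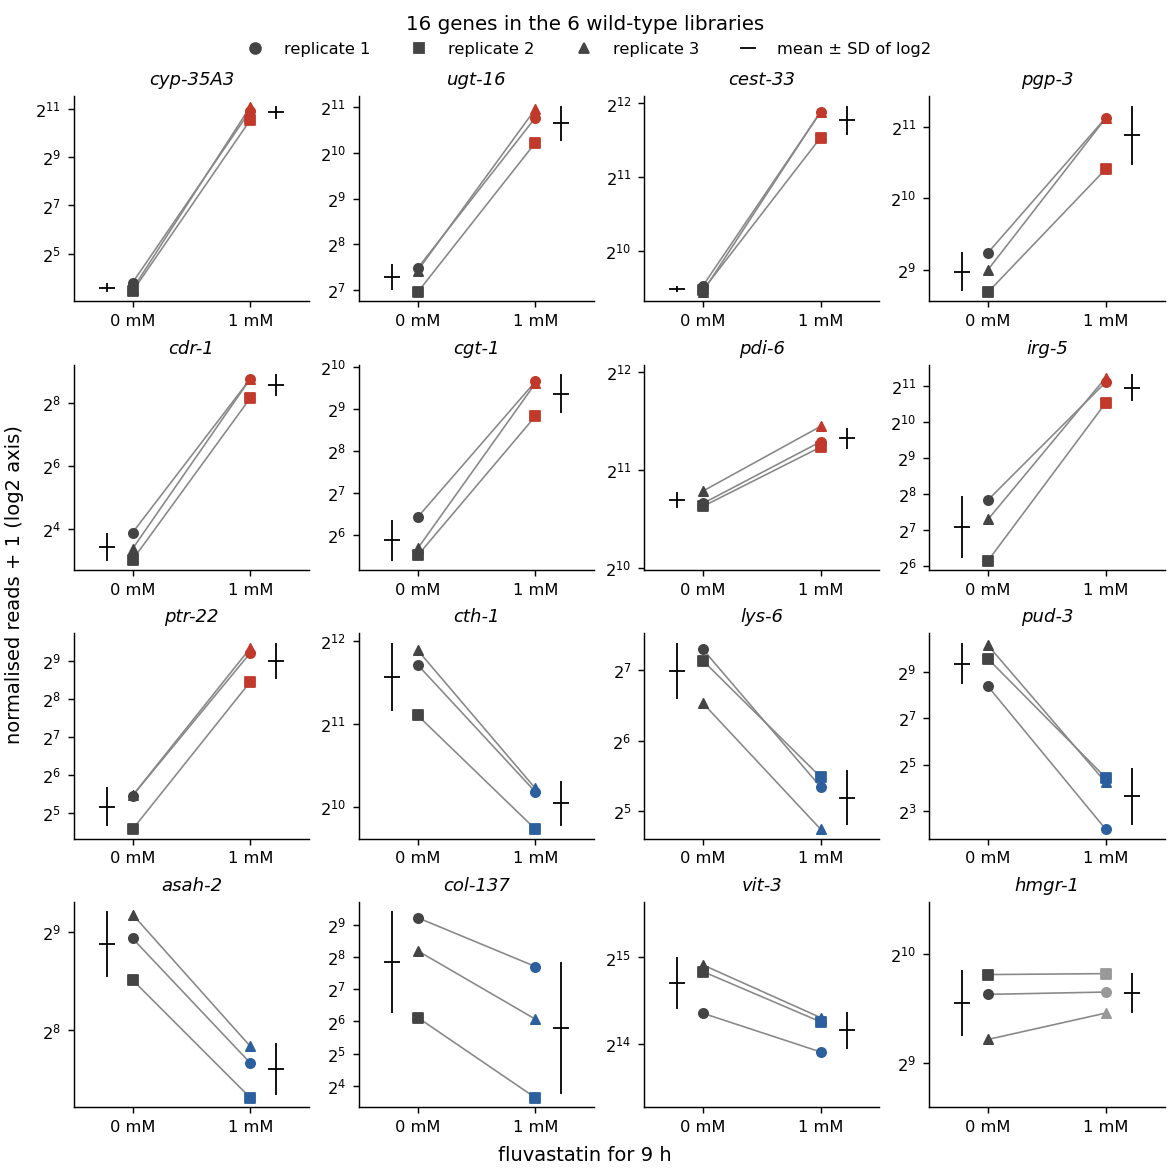
Normalised reads plus 1 of 16 genes in the 6 wild-type libraries, on log2 axes that differ between panels. Grey lines join libraries of the same replicate number; red is a call higher with fluvastatin, blue a call lower and grey no call; black bars give the mean and SD of the 3 log2 values of a group. In 14 panels the groups do not overlap, while those of col-137, where replicate 2 is low throughout, and of hmgr-1 do.

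Genes that answer to metals rose in part. Of 32 tested, 5 rose and 2 fell (3 and 0 with no replicate term). cdr-1, named for its response to cadmium, had 13.9, 7.23 and 9.49 normalised reads in the controls and 429.7, 282 and 429.8 with fluvastatin (log2 5.11 ± 0.20, adjusted p = 6.75e-10). cdr-4 had 286, 204 and 299 normalised reads in the controls and 1142, 1046 and 1403 with fluvastatin (2.19 ± 0.13). hrg-2, a haem-responsive gene next to cdr-4 on chromosome V, rose by 2.72 ± 0.22 and the metallothionein gene mtl-1 by 2.28 ± 0.32. The groups did not overlap for any of these genes. The median of the list was 0.003. The 2 falls were both lost without replicate number 2 or 3, and 1 was called without control 3 or fluvastatin library 3. mtl-1 was called only with the replicate term.

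Sphingolipid genes moved in both directions, with 4 rises and 5 falls among 24 (3 and 0 with no replicate term). The rises were those of gba-1, gba-2, cgt-1 and cgt-2, enzymes that add or remove the glucose of glucosylceramide, while gba-4, a further glucocerebrosidase gene, fell (log2 -0.77 ± 0.11); gba-1 and gba-4 are named after their values were seen, and gba-4 overlaps another annotated gene. gba-2, a glucocerebrosidase gene that overlaps its neighbour gba-1, had 7.83, 12.7 and 9.49 normalised reads in the controls and 501, 278 and 618 with fluvastatin (log2 5.35 ± 0.38). cgt-1, a ceramide glucosyltransferase gene, had 84.4, 44.3 and 49.8 normalised reads in the controls and 806, 454 and 783 with fluvastatin (log2 3.51 ± 0.17, adjusted p = 7e-08), and cgt-2 rose by 1.04 ± 0.11. Ceramidase went down: asah-2 had 489, 364 and 579 normalised reads in the controls and 202, 158.2 and 228 with fluvastatin (-1.27 ± 0.10, adjusted p = 8.33e-07); it overlaps F27E5.3. The list's summed reads hardly differed, at 22873 to 23636 in the controls and 23680 to 23730 with fluvastatin. Leave-outs kept 3 or 4 rises and 4 or 5 falls. gba-4 and asah-2 were called only with the replicate term.

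Single membrane protein genes had large rises. tat-6, which encodes a phospholipid-transporting ATPase, had 6.96, 0 and 5.93 normalised reads in the controls and 478, 218 and 429.8 with fluvastatin (log2 6.55 ± 0.39). Of 6 flippase genes 2 rose (1 with no replicate term), the other being tat-2 (0.77 ± 0.14), which was not called without replicate number 3 (adjusted p of 0.0504). ptr-22, a patched-related gene of the moulting and hedgehog-related list, had 42.6, 22.6 and 42.7 normalised reads in the controls and 592, 349 and 646 with fluvastatin. Its log2 change was 3.85 ± 0.12 (adjusted p = 9.23e-11), while 3 of that list's 81 tested genes rose and 4 fell (1 rise and 0 falls with no replicate term; 2 rises without replicate number 1, number 2, number 3, fluvastatin library 2 or fluvastatin library 3; 2 falls without number 1, 1 without control 3 and 0 without number 3, fluvastatin library 2 or fluvastatin library 3). Apart from these membrane protein genes, ckb-2, a choline kinase gene, rose by 1.62 ± 0.15. tat-2 was called only with the replicate term.

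Several of the strongest rises have no gene name beyond the sequence name. R13D11.3 and R13D11.4 lie near each other on chromosome V and had log2 changes of 3.73 ± 0.11 and 3.797 ± 0.11; R13D11.4 overlaps R13D11.10. T10B5.8 had 52.2, 44.3 and 55.8 normalised reads in the controls and 3940.2, 3258 and 4284 with fluvastatin (log2 6.21 ± 0.24). C29F7.2 had 318, 251 and 245 normalised reads in the controls and 2666, 2135 and 2801 with fluvastatin (3.22 ± 0.085, adjusted p = 4.18e-11). Y73C8C.10 and H25K10.4, whose controls held at most 8.14 normalised reads, rose by 8.09 ± 0.55 and 7.35 ± 0.42. The groups were far apart for all 6. Of the 586 rises 226 (38.6%) have a sequence name only, as have 43.2% of all tested genes and 34.7% of the falls. The gene lists hold 34.8% of the rises and 34.3% of the falls, against 14.4% of all tested genes. The lists were chosen with earlier results of these data known, so this contrast follows in part from that choice.

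Chaperones and folding enzymes of the endoplasmic reticulum rose, mostly by small amounts. Of 34 genes of its unfolded protein response 16 rose and 0 fell (5 rises with no replicate term), and 33 of 34 had a log2 change above 0, with a median of 0.26. hsp-4, one of the worm's BiP chaperones, had 5382, 5348 and 5539.8 normalised reads in the controls and 8334, 7407 and 8465 with fluvastatin (log2 0.57 ± 0.06, adjusted p = 2.21e-05). pdi-6, a disulfide isomerase gene, had 1619, 1585 and 1766 normalised reads in the controls and 2502, 2409 and 2788 with fluvastatin (0.63 ± 0.049, adjusted p = 1.09e-06). dnj-7, a DnaJ cochaperone gene, had 642, 592 and 470.0 normalised reads in the controls and 1051, 993 and 1109.7 with fluvastatin (0.90 ± 0.10). The groups did not overlap for these 3 genes. The choline kinase gene ckb-2, given above, is also among the 16, and its log2 change of 1.62 ± 0.15 was larger than those of these 3. Pair by pair the log2 change of hsp-4 was 0.63, 0.47 and 0.61. The more abundant hsp-3, the other BiP gene, rose by 0.38 ± 0.049 and pdi-3 by 0.33 ± 0.036. Y41C4A.11 had the largest rise of the list but wide controls, at 42.6, 165 and 108 normalised reads in the controls and 828, 857 and 1075 with fluvastatin, and was not called without replicate number 1 or 3, control 1, 2 or 3 or fluvastatin library 1 or 3 (adjusted p up to 0.266). Also called, and named after their values were seen, were crt-1 for calreticulin (log2 0.38; it overlaps smut-1), ero-1 for an oxidase of disulfide formation (0.37) and xbp-1, the transcription factor of this response (0.22). Summed reads of the list were 94429, 100062 and 104165 in the controls and 117387, 117812 and 128606 with fluvastatin. Without replicate number 3 the rises numbered 9. The abu and pqn genes, a further set linked to this compartment, had 0 of 12 called by limma with or without the replicate term and 0 by edgeR or DESeq2, with 1 at an unadjusted p under 0.05 and a list median of -0.35. hsp-3, pdi-3, crt-1, ero-1 and xbp-1 were called only with the replicate term.

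Immune genes moved in both directions. Of 18 effectors of the PMK-1 p38 pathway, which guards the intestine against bacteria, 10 rose and 2 fell (6 and 0 with no replicate term). irg-6 had 3.48, 7.23 and 22.6 normalised reads in the controls and 1494, 1165 and 2019.7 with fluvastatin (log2 7.32 ± 0.45). irg-4 had 227, 148 and 381 normalised reads in the controls and 2927, 2451 and 3753 with fluvastatin (3.67 ± 0.19) and irg-5 227, 69.6 and 156 normalised reads in the controls and 2210.3, 1485 and 2416 with fluvastatin (3.87 ± 0.24). C29F3.7 rose by 2.08 ± 0.076 (adjusted p = 3.55e-10). All 4 had treated libraries far above every control. The 2 falls, named after their values were seen, were dod-24 (-1.29) and dod-17 (-0.66); the falls numbered 1 without replicate number 2 or 3. The median log2 change of the 18 genes was 0.97, and their summed reads went from between 2144 and 3341 to between 9218 and 13877. Of 11 genes of the PMK-1 cascade itself 1 rose, the phosphatase gene vhp-1 (0.49 ± 0.073), with 2 called without replicate number 2 or fluvastatin library 2. dod-24 and dod-17 were called only with the replicate term.

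Secreted lectins went both ways. Of 128 C-type lectin genes 13 rose and 24 fell (4 and 10 with no replicate term; 7 and 17 without replicate number 1). clec-209 had 2273, 2521 and 3009 normalised reads in the controls and 13798, 11457 and 14289 with fluvastatin, and its log2 change of 2.34 ± 0.068 was the largest rise in reads of all genes. The same values within 5% were given for F56A4.2, so the reads of these 2 genes cannot be told apart. clec-206 went from at most 3.62 normalised reads in the controls to 1555, 856 and 1489 (8.46 ± 0.74), and was not called without replicate number 1 (adjusted p of 0.0641). clec-166 fell, with 184, 123 and 133 normalised reads in the controls and 22.1, 32.3 and 14.6 with fluvastatin (-2.67 ± 0.33). clec-70, which fell (log2 -2.29 ± 0.37), was not called without replicate number 1 (adjusted p of 0.0601). clec-258 had 173, 57.9 and 173 normalised reads in the controls and 40.5, 16.7 and 34.8 with fluvastatin (-2.03 ± 0.18). With clec-209 in it, the list's summed reads were 36313, 35521 and 40925 in the controls and 50281, 44566 and 53273 with fluvastatin, while its median log2 change was -0.11. clec-258 was called only with the replicate term.

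Lysozymes, thaumatins and saposin-like peptides gave more falls than rises. Of 9 lysozyme genes 5 fell and 1 rose (2 and 1 with no replicate term). lys-4, lys-5 and lys-6 lie side by side on chromosome IV. lys-6 had 156, 139 and 91.4 normalised reads in the controls and 39.6, 43.7 and 25.8 with fluvastatin (log2 -1.79 ± 0.20) and lys-5 changed by -1.78 ± 0.20. lys-4 had 1123, 961 and 982 normalised reads in the controls and 416, 455 and 258 with fluvastatin (-1.48 ± 0.24) and was not called without replicate number 1 or fluvastatin library 1 (adjusted p up to 0.203). ilys-5, an invertebrate-type lysozyme gene, had 1533, 1449 and 1761 normalised reads in the controls and 709.5, 771 and 698 with fluvastatin (-1.12 ± 0.10, adjusted p = 8.89e-06). Groups did not overlap in any of the 4 genes. The values of lys-5 were close to those of lys-6, at 39.6, 37.5 and 25.8 normalised reads with fluvastatin, and reads may be shared between them. Both thaumatin genes tested fell, thn-1 with a log2 change of -2.47 ± 0.29 and thn-2 with -2.85 ± 0.32, and thn-2 was not called without replicate number 1 (adjusted p of 0.0568). Of 68 antimicrobial and saposin-like genes 16 fell and 6 rose (5 and 1 with no replicate term; 7 and 4 without replicate number 3). The saposin-like gene spp-4 had 204, 236 and 351 normalised reads in the controls and 108, 121 and 145 with fluvastatin (-1.05 ± 0.13). Among the rises were cnc-4 (1.62 ± 0.19) and, with overlapping groups, fipr-24 (1.69 ± 0.22); nlp-29, a peptide gene of the epidermis that responds to wounding and fungi, rose by 0.72 ± 0.12. lys-6, lys-5, cnc-4 and fipr-24 were called only with the replicate term.

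Genes of the response to intracellular pathogens had 3 rises among 24 tested and 0 falls, and 0 were called with no replicate term. They were cul-6 (0.76 ± 0.16), pals-24 (0.58 ± 0.16; it overlaps C29F9.12) and skr-3 (0.45 ± 0.076), of which cul-6 encodes a cullin of a ubiquitin ligase. The rises numbered 1 without replicate number 3, control 1, fluvastatin library 2 or fluvastatin library 3. cul-6 was not called without replicate number 1 or 3, control 1 or 3 or fluvastatin library 2 or 3 (adjusted p up to 0.132) and pals-24 not called without replicate number 2 or 3, control 1 or 2 or fluvastatin library 2 or 3 (adjusted p up to 0.338). F-box genes, which give such ligases their targets, had 18 rises and 0 falls among 264 tested (5 rises with no replicate term), with a list median of 0.002. A run of 10 tested fbxc genes on chromosome IV made up most of the rises. fbxc-9, fbxc-10 and fbxc-11 share 1 set of values, at 13.1, 44.3 and 10.7 normalised reads in the controls and 88.3, 79.1 and 34.8 with fluvastatin (1.70 ± 0.33), and count as 1 measurement. Fluvastatin library 3 lay under control 2 there, and fbxc-10 was not called without replicate number 3 (adjusted p of 0.0884). The 18 became 12 without replicate number 1, 8 without number 3 and 10 without fluvastatin library 3, and up to 3 falls were called without fluvastatin library 2, against 1 without number 1 or fluvastatin library 1. cul-6, pals-24, skr-3 and fbxc-10 were called only with the replicate term.

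Of the yolk genes 4 of 6 fell. The 6 vitellogenin genes encode the lipid-carrying yolk proteins that the intestine makes for oocytes from the young adult stage on, and all 6 had a log2 change under 0. vit-3 had 20916, 29258 and 30862 normalised reads in the controls and 15319, 19516 and 20196 with fluvastatin (log2 -0.55 ± 0.079, adjusted p = 0.00125). vit-1 had 12616, 16061 and 19219.7 normalised reads in the controls and 9481, 10907 and 12045 with fluvastatin (-0.55 ± 0.081). vit-4 and vit-5 changed by -0.52 ± 0.084 and -0.44 ± 0.085. vit-2, which overlaps C42D8.9, and vit-6 had log2 changes of -0.31 ± 0.10 and -0.26 ± 0.10 and did not pass (adjusted p = 0.128 and 0.195). In each pair of the 4 called genes the treated library was lower, though for vit-5 the groups overlapped. With no replicate term 0 of the 6 were called by limma, and 1 was called without replicate number 1: vit-3 was not called without replicate number 1 (adjusted p of 0.0703), vit-4 not called without replicate number 1 (adjusted p of 0.122) and vit-5 not called without replicate number 1, control 1 or 3 or fluvastatin library 3 (adjusted p up to 0.201). Among called genes these 4 lost the most reads, and the 10 largest such losses together made up 29.8% of all reads lost by the genes that fell. The values of vit-3, vit-4 and vit-5 were close, with control means of 27012, 27644 and 27564. Reads may be shared among them, so their falls may not be separate measurements. vit-3, vit-1, vit-4 and vit-5 were called only with the replicate term.

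All 6 pud genes fell (4 with no replicate term, namely pud-1.1, pud-1.2, pud-3 and pud-4). They are named for proteins that are more abundant in insulin receptor mutants, and their function is little known. pud-3 had 332, 757 and 1135 normalised reads in the controls and 3.68, 20.8 and 17.95 with fluvastatin (log2 -5.73 ± 0.36, adjusted p = 1.14e-05). pud-4 had 79.2, 202 and 262 normalised reads in the controls and 0.92, 6.25 and 1.12 with fluvastatin (-5.72 ± 0.56). Even the highest treated value was far under the lowest control. pud-1.1 and pud-1.2, whose copies are so alike that reads may be split between them, changed by -1.96 ± 0.20 and -1.96 ± 0.21. Leave-outs called 4 to 6 of them. Lysosomal lipases, which free fatty acids from stored fat, had 3 falls among 6 tested: lipl-1 had 51.3, 16.3 and 141 normalised reads in the controls and 16.6, 6.25 and 46.0 with fluvastatin (-1.48 ± 0.23) and was not called without replicate number 3 (adjusted p of 0.0532), lipl-2 changed by -1.27 ± 0.26 and was not called without replicate number 2 or control 3 (adjusted p up to 0.103), and lipl-3, with few reads, changed by -2.41 ± 0.59 and was not called without replicate number 2, control 1 or 2 or fluvastatin library 1, 2 or 3 (adjusted p up to 0.203). lipl-3 overlaps srw-107. With no replicate term 0 of the 6 lipase genes were called by limma, and 1 was called without replicate number 2. lipl-1, lipl-2 and lipl-3 were called only with the replicate term.

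Sulphur and fat metabolism changed at single genes rather than as pathways. cth-1, a cystathionine gamma-lyase gene of the transsulfuration route to cysteine, had 3361, 2199 and 3800.0 normalised reads in the controls and 1158, 846 and 1192 with fluvastatin (log2 -1.53 ± 0.068, adjusted p = 2.9e-09). Its groups were well apart. str-7, a chemoreceptor gene next to cth-1 on chromosome V, had 121, 59.7 and 101 normalised reads in the controls and 11.96, 10.4 and 12.3 with fluvastatin (-2.86 ± 0.23). 1 other member of the 21 transsulfuration and propionate genes was called, hach-1, at -0.19 ± 0.051, and it was not called without replicate number 1, 2 or 3, control 1, 2 or 3 or fluvastatin library 1 or 3 (adjusted p up to 0.364). Of 43 genes of fatty acid oxidation 1 rose and 4 fell (1 and 0 with no replicate term). The rise was daf-22, the thiolase gene of the peroxisomal side chain shortening that makes ascaroside pheromones, with 1267, 1166 and 1423 normalised reads in the controls and 1878, 1746 and 1929 with fluvastatin (0.53 ± 0.054, adjusted p = 1.71e-05). acdh-2, which overlaps ins-13, fell (log2 -0.71 ± 0.11) and was not called without replicate number 3 (adjusted p of 0.108). The 4 falls became 2 without replicate number 1, control 2, control 3 or fluvastatin library 1, 1 without fluvastatin library 3 and 0 without number 3. Among 21 desaturase and elongase genes 1 rose and 2 fell (0 in either direction with no replicate term, by limma). fat-5 rose by 0.69 ± 0.10, from 293, 408 and 317 normalised reads to 427.0, 669 and 555, and it overlaps twk-42; elo-6 (-0.27 ± 0.059) was not called without replicate number 3, control 3 or fluvastatin library 1 or 3 (adjusted p up to 0.229) and elo-2 (-0.23 ± 0.053) not called without replicate number 2 or 3, control 1, 2 or 3 or fluvastatin library 2 or 3 (adjusted p up to 0.194). fat-6 and fat-7, the desaturases that make oleic acid, had log2 changes of 0.02 ± 0.078 and -0.54 ± 0.35 and did not pass (adjusted p = 0.931 and 0.502). hach-1, acdh-2, fat-5, elo-6 and elo-2 were called only with the replicate term.

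Aspartic and cysteine proteases of the gut had 7 falls and 2 rises among 21 tested genes. asp-13 had 3100.0, 2336 and 2579 normalised reads in the controls and 1160.4, 1224 and 1083 with fluvastatin (log2 -1.20 ± 0.15) and was not called without replicate number 3 (adjusted p of 0.0905). cpr-4 had 1358, 1396 and 1546 normalised reads in the controls and 889, 789 and 821 with fluvastatin (-0.78 ± 0.093), while cpr-3 rose by 1.13 ± 0.11 and asp-8 by 1.32 ± 0.18. With no replicate term there were 2 falls and 1 rise. The falls numbered 3 without replicate number 3 and 4 without control 3 or fluvastatin library 3. The 14 intestinal marker genes are not a separate set, since asp-1 and cpr-6 are themselves protease genes and pgp-3 is also in the ABC list. Of the 14, 5 fell and 1, pgp-3, rose (0 and 1 with no replicate term). Their median log2 change was -0.092, and 6 of them were above 0. Their summed reads were 33049, 27780 and 41005 in the controls and 31681, 24820 and 33755 with fluvastatin, and 3 fell without replicate number 1 or number 3. pho-1, an acid phosphatase gene of the gut brush border that overlaps EGAP2.1, had 1742, 1481 and 1384 normalised reads in the controls and 1109, 1139.9 and 957 with fluvastatin (-0.52 ± 0.077), and asp-1 changed by -0.46 ± 0.074. What part the intestine's share of the RNA had in the yolk, protease and lysozyme values was not tested, and in whole worms fewer cells of a type and less RNA per cell cannot be told apart. asp-8, pho-1 and asp-1 were called only with the replicate term.

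Cuticle collagens gave falls almost alone. Of 145 tested, 32 fell and 1 rose with the replicate term (1 fall and 1 rise with none), and 127 of 145 had a log2 change at or under 0, with a list median of -0.30. col-137 had 592, 68.7 and 291 normalised reads in the controls and 207, 11.5 and 66.2 with fluvastatin (log2 -2.04 ± 0.30) and was not called without replicate number 3 (adjusted p of 0.0729). In each pair the treated library was lower, while fluvastatin library 1 lay above control 2, so that the groups overlapped. col-181 had 7896, 7862 and 11125 normalised reads in the controls and 6676, 5565 and 7862 with fluvastatin (-0.41 ± 0.055, adjusted p = 0.000194), also with overlapping groups. col-106, whose groups did not overlap, had 6415, 6373 and 8288 normalised reads in the controls and 5529, 4629 and 6358 with fluvastatin (-0.35 ± 0.052). Summed collagen reads were 197037, 120661 and 214422 in the controls and 179176, 92666 and 163801 with fluvastatin, lower in every pair and lowest in replicate 2 of both groups. The 32 falls became 17 without replicate number 2, control 2 or fluvastatin library 2, 8 without number 3, 15 without control 3 and 13 without fluvastatin library 3. Epidermal marker genes had 0 of 15 called by limma with or without the replicate term and 0 by edgeR or DESeq2, with 4 at an unadjusted p under 0.05, a median of -0.18 and summed reads of 12232 to 14809 in the controls and 10912 to 14233 with fluvastatin. 1 was called lower without replicate number 1 and 2 without control 1. Their part in the collagen result was not tested. col-137, col-181 and col-106 were called only with the replicate term.

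Cytosolic ribosomal protein genes had small falls. Of 85, 13 fell and 0 rose, and 84 had a log2 change under 0, with a median of -0.13. rps-3 had 11576, 10969 and 14737 normalised reads in the controls and 10864, 9670.1 and 12177 with fluvastatin (log2 -0.18 ± 0.042) and was not called without replicate number 2 or 3, control 2 or 3 or fluvastatin library 2 or 3 (adjusted p up to 0.214). The treated libraries overlapped controls 1 and 2. The 13 falls became 0 without replicate number 2, number 3, control 3 or fluvastatin library 3, 1 without control 2 and 2 without fluvastatin library 2, and 0 were called with no replicate term. rps-3 was called only with the replicate term.

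A family of small secreted peptides of unknown function, nspc, fell in all 20 tested members, 2 of them annotated as pseudogenes, and is named here after its values were seen. The log2 changes ran from -1.23 to -0.39, and the groups did not overlap in any member. nspc-15, which overlaps F19H6.6, had 714, 655 and 856 normalised reads in the controls and 451, 376 and 503 with fluvastatin (-0.74 ± 0.066, adjusted p = 4.43e-06), and nspc-18 had 129, 106 and 179 normalised reads in the controls and 58.0, 42.7 and 74.1 with fluvastatin (-1.23 ± 0.13). Summed reads of the 20 genes were 4900, 4577 and 6379 in the controls and 3260, 2830 and 3789 with fluvastatin. All lie on chromosome X in 4 runs of tested neighbours, and near-identical copies may share reads: nspc-2 and nspc-6 had identical values. With no replicate term nspc-15 and nspc-18 were called and the other 18 were not. 11 to 19 of the 20 were called in the 9 leave-outs, with 11 without replicate number 3. Of 203 families with at least 8 tested members, 107 had no call.

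**Figure D3:**
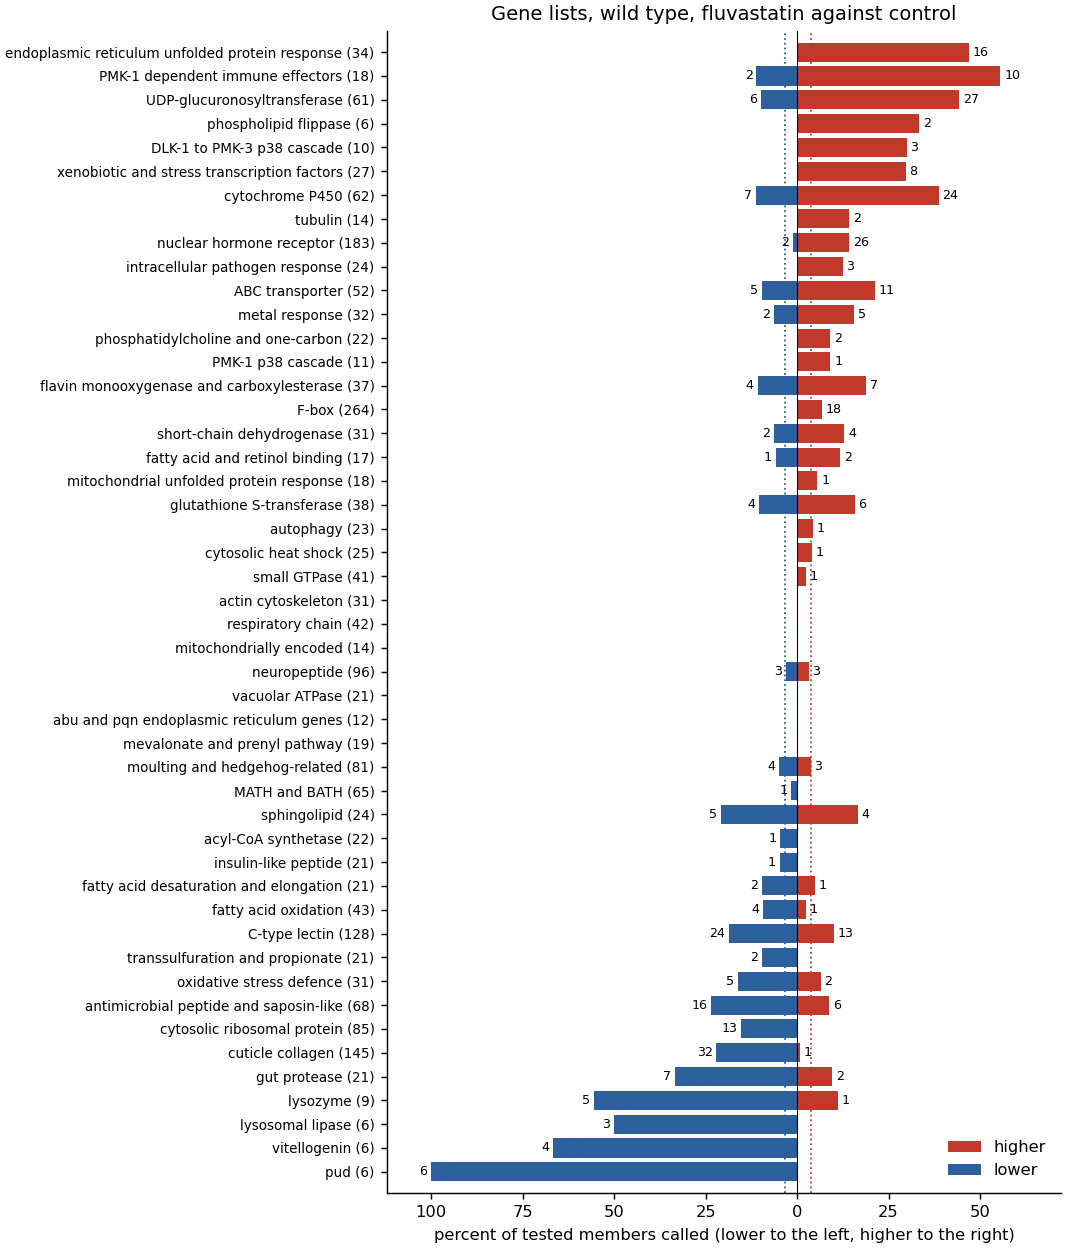
Share of each gene list called in wild type, with the number of tested members in brackets. Red bars to the right give the percentage of tested members called higher with fluvastatin and blue bars to the left the percentage called lower, with counts at the bar ends; dotted lines mark 3.77% and 3.25%, the shares of all tested genes. Detoxification, endoplasmic reticulum and PMK-1 effector lists extend to the right, and pud, vitellogenin, lipase, lysozyme, protease, collagen and ribosomal lists to the left.

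In the drug's own pathway no gene passed. Of 19 genes of the mevalonate and prenyl pathway 0 were called by limma with or without the replicate term and 0 by edgeR or DESeq2, with 2 at an unadjusted p under 0.05. Their summed reads were 20233, 21902 and 22787 in the controls and 20419, 22354 and 21913 with fluvastatin. hmgr-1, which encodes HMG-CoA reductase, had 791, 896 and 595 normalised reads in the controls and 802, 902 and 702 with fluvastatin. The groups overlapped, with a log2 change of 0.09 ± 0.063 (adjusted p = 0.512). hmgs-1, the synthase before it, had 357, 333 and 266 normalised reads in the controls and 351, 328 and 294 with fluvastatin (0.033 ± 0.083). sbp-1, the worm's sterol regulatory element binding protein gene, had a log2 change of 0.21 ± 0.089 (adjusted p = 0.239) and overlaps idpc-1. Of 41 small GTPase genes, whose products carry the pathway's prenyl anchors or belong to the same superfamily, 1 rose, arl-7, which the annotation calls a pseudogene, with 16.5, 25.3 and 20.2 normalised reads in the controls and 58.0, 69.8 and 69.6 with fluvastatin (log2 1.64 ± 0.23, adjusted p = 0.000308). Actin cytoskeleton genes, with 31 tested, and vacuolar ATPase genes, with 21, had 0 calls by limma with or without the replicate term and 0 by edgeR or DESeq2. At an unadjusted p under 0.05 there were 6 and 2 of them, and 1 actin gene was called lower without replicate number 1 and 3 without fluvastatin library 1.

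The cytosolic heat shock and mitochondrial lists gave few calls, while oxidative stress genes gave more falls than rises. Of 25 cytosolic heat shock genes 1 rose (0 with no replicate term), the small heat shock gene hsp-17 (0.85 ± 0.11), which overlaps F52E1.14. In the mitochondrial unfolded protein response 1 of 18 genes rose (0 with no replicate term), its transcription factor atfs-1 (0.25 ± 0.052), which was not called without replicate number 2 or 3 (adjusted p up to 0.092). The mitochondrial chaperones hsp-6 and hsp-60 had log2 changes of 0.029 ± 0.061 and -0.16 ± 0.049 (adjusted p = 0.867 and 0.0814). Respiratory chain genes, with 42 tested, and mitochondrially encoded genes, with 14, had 0 calls by limma with or without the replicate term, with medians of -0.081 and -0.19. At an unadjusted p under 0.05 there were 4 and 5 of them, edgeR called 1 respiratory chain gene and DESeq2 0, and 1 of each was called lower without replicate number 1. Oxidative stress genes had 2 rises and 5 falls among 31, where 3.77% of all tested genes rose and 3.25% fell. With no replicate term limma called 0 of the 31 in either direction. ctl-2, a peroxisomal catalase gene that overlaps Y54G11A.7, had 1278, 1456 and 1644 normalised reads in the controls and 986, 1073 and 1013 with fluvastatin (-0.50 ± 0.084). gst-10, whose product clears 4-hydroxynonenal, fell (log2 -0.71 ± 0.12). gst-10 and gst-4, given above, are among these 5 falls and also among the 4 of the glutathione S-transferases, so the 2 lists are not separate. In the leave-outs 0 or 1 rises and 2 to 4 falls of the oxidative stress list were called. hsp-17, atfs-1, ctl-2 and gst-10 were called only with the replicate term.

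The DLK-1 p38 cascade, which runs from DLK-1 through MKK-4 to PMK-3 and is known from neurons and from mitochondrial stress, had 3 rises and 0 falls among 10 genes. tbb-6, a beta-tubulin gene known as a target of PMK-3, had 48.7, 76.9 and 23.7 normalised reads in the controls and 381, 460.1 and 401 with fluvastatin (log2 3.18 ± 0.36, adjusted p = 0.000819); it was not called without replicate number 1 (adjusted p of 0.1). The other rises were cebp-1, given above, and dlk-1 itself, with 961, 791 and 911 normalised reads in the controls and 1419, 983 and 1345 with fluvastatin (0.48 ± 0.10); dlk-1 overlaps mec-19 and was not called without replicate number 3, control 2 or 3 or fluvastatin library 1 or 3 (adjusted p up to 0.232). All 3 genes also rose in the dlk-1 mutant. There tbb-6 changed by 2.48 ± 0.36, cebp-1 by 0.55 ± 0.15 and dlk-1 by 0.59 ± 0.10 (adjusted p = 0.00422, 0.0473 and 0.00255). Their differences between genotypes did not pass. The kinase genes mkk-4 and pmk-3 had log2 changes of 0.23 ± 0.12 and 0.021 ± 0.13 in wild type, and did not pass (adjusted p = 0.328 and 0.957). With no replicate term 1 of the 10 rose. The 3 rises became 1 without replicate number 1, number 3, control 2, control 3, fluvastatin library 1 or fluvastatin library 3. Of 14 tubulin genes 2 rose (1 with no replicate term, and 1 without replicate number 1), tbb-6 and tba-7 (1.07 ± 0.15), and tba-7 overlaps T28D6.3. dlk-1 and tba-7 were called only with the replicate term.

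Markers of most tissues gave no call. With limma, with or without the replicate term, 0 of 20 muscle, 24 neuronal, 66 sperm, 20 oocyte and eggshell, 25 germline and 9 coelomocyte and excretory genes were called. At an unadjusted p under 0.05 there were 7, 3, 0, 2, 1 and 0 of them, and edgeR and DESeq2 called 0. Their median log2 changes were -0.11, 0.023, -0.059, 0.071, 0.036 and -0.030 in that order. All 20 muscle genes had a log2 change under 0, and their summed reads were 111006, 85043 and 128121 in the controls and 107862, 78079 and 120265 with fluvastatin. Of 12 pharyngeal genes 1 fell, phat-3 (-0.50 ± 0.13), and 0 with no replicate term; phat-3 was not called without replicate number 2 or 3, control 1, 2 or 3 or fluvastatin library 2 or 3 (adjusted p up to 0.258). The levels differed more between replicate numbers than between doses in the muscle and sperm lists. Their part in the results was not tested. phat-3 was called only with the replicate term.

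The remaining lists gave scattered calls. Of 96 neuropeptide genes 3 rose and 3 fell (1 and 0 with no replicate term, and 1 fall without replicate number 2 or 3). These counts are near the shares of all tested genes, 3.77% and 3.25%. The 3 rises were nlp-29, the epidermal peptide gene given above, nlp-31 (0.62 ± 0.11) and nlp-28 (0.56 ± 0.093), close together on chromosome V. nlp-31 was not called without replicate number 1 or 3 (adjusted p up to 0.0611). Of 17 genes of fatty acid and retinol binding 2 rose and 1 fell. far-3, which overlaps far-5, rose by 1.38 ± 0.23 and was not called without replicate number 1 or 3 or control 3 (adjusted p up to 0.205), and lbp-3 rose by 0.41 ± 0.066. Of 22 phosphatidylcholine and one-carbon genes 2 rose, the choline kinase genes ckb-2, given above, and ckb-4 (0.34 ± 0.093), and ckb-4 was not called in any of the 9 leave-outs (adjusted p up to 0.29). Of 23 autophagy genes 1 rose, sqst-1, the worm's p62 (0.37 ± 0.087), which was not called without replicate number 3, control 2 or 3 or fluvastatin library 1 or 3 (adjusted p up to 0.354). Of 22 acyl-CoA synthetase genes 1 fell, acs-5 (-0.43 ± 0.074), which was not called without replicate number 3 (adjusted p of 0.0563). Of 21 insulin-like peptide genes 1 fell, ins-13 (-0.72 ± 0.12), which overlaps acdh-2 and was not called without replicate number 3 (adjusted p of 0.223). Of 65 MATH and BATH genes 1 fell, math-47 (-0.82 ± 0.20), an annotated pseudogene, which was not called without replicate number 1 or 3, control 2 or 3 or fluvastatin library 1 or 3 (adjusted p up to 0.319). In the leave-outs each of these 7 lists had at most 3 calls in a direction. nlp-31, nlp-28, lbp-3, ckb-4, sqst-1, acs-5, ins-13 and math-47 were called only with the replicate term.

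Calls depended on abundance. Among genes with a mean under 50 normalised reads 2.11% rose and 1.90% fell, against 5.04% and 4.31% of those from 200 to 1000 and 3.51% and 3.38% of those above 1000. The median standard error of the log2 change fell from 0.32 to 0.059 between the lowest and the highest of these classes, so that small changes of rare genes were not detectable at this depth.

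The called genes were spread unevenly over the chromosomes. On chromosome V 233 of 2978 tested genes (7.82%) rose, against 1.75% on chromosome I and 1.96% on chromosome III. Chromosome X had the highest share of falls, 117 of 2088 (5.6%), against 1.63% on chromosome I. Outside the gene lists the shares were 5.56% higher on V and 4.78% lower on X, again the highest of the 6 chromosomes. Both shares of falls on X include the 20 nspc genes, a clustered family for which no gene list was made and whose copies may share reads. No test was made of these shares.

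**Figure D4:**
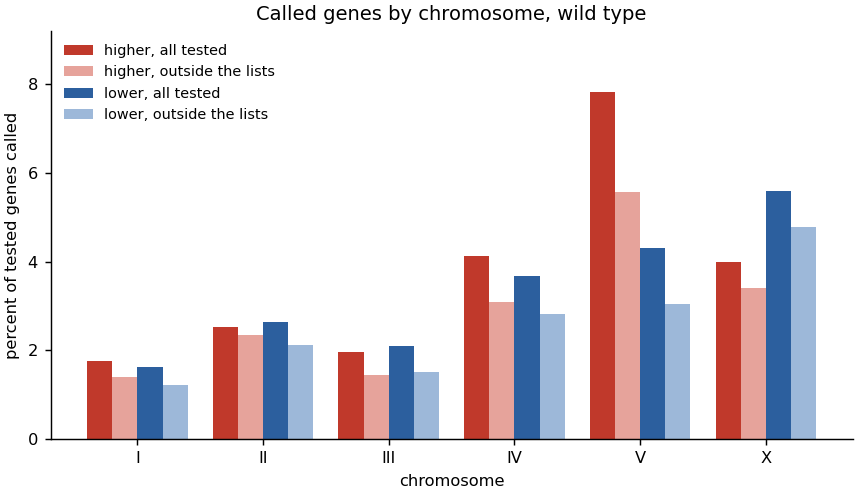
Percentage of tested genes called in wild type by chromosome. Dark red and dark blue bars give all tested genes called higher and lower with fluvastatin, and pale bars the genes outside the gene lists. Chromosome V has the tallest red bars, 7.82% and 5.56%, and X the tallest blue bars, 5.6% and 4.78%.

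Some called genes lay beside others called in the same direction. Tested genes were put in order on the WBcel235 annotation, and genes not tested were skipped. Of 583 rises placed 196 (33.6%) lay beside another rise, and of 503 falls 124 (24.7%) beside another fall. Over all tested genes 3.77% rose and 3.25% fell. Of the 586 rises 148 overlap another annotated gene, as do 135 of the 505 falls. Whether neighbours share calls more than these values imply was not tested. On chromosome V, from 4892588 to 4911399, 8 tested genes in a row rose, with ugt-9, ugt-10 and ugt-67 among them. ugt-9 had 39.1, 64.2 and 71.2 normalised reads in the controls and 1213, 749.5 and 1103 with fluvastatin (log2 4.13 ± 0.24). From 4022609 to 4043601 on the same chromosome 7 tested genes in a row rose, from cyp-35A3 and cyp-35A4 to irg-2. cyp-35A4 went from at most 6.09 normalised reads to 707, 308 and 653 (7.78 ± 0.56). Another run of 6 rises spans 13734309 to 13753581 and holds irg-5 and F35E12.6, the latter at 1266, 1037 and 1256 normalised reads in the controls and 2046, 1600.1 and 1869 with fluvastatin (0.63 ± 0.055). The pud genes sit in a run of 6 falls from 2322038 to 2330930. On chromosome X vit-4 and vit-3 lie in a run of 5 falls from 3558769 to 3578830. Overlapping genes and near copies in such runs may share reads, as in the fbxc run on chromosome IV from 891239 to 911196. F35E12.6 was called only with the replicate term.

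In the dlk-1 mutant, where 500 genes (3.22%) rose and 480 (3.09%) fell, the wild-type changes were seen beside changes of the same sign. The mutant has its own controls and treated libraries. Its level of dlk-1 was 481, 541 and 506 normalised reads in the controls and 792.0, 706 and 804 with fluvastatin, lower than in the wild-type library of the same number and dose in all 6 pairs but not absent. Of the 586 genes that rose in wild type 581 had a log2 change above 0 in the mutant and 422 were called higher there, with 0 called lower. Of the 505 that fell 501 were under 0 and 348 were called lower, with 0 called higher. The median change of the rises was 0.91 in wild type and 0.74 in the mutant, and that of the falls -0.63 and -0.50. The genes were chosen on their wild-type values, so no order is read from these sizes.

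Some single genes were close in both genotypes and others were further apart. ugt-16 changed by 3.37 ± 0.081 in wild type and 3.36 ± 0.081 in the mutant, cest-33 by 2.295 ± 0.069 and 2.28 ± 0.069, cdr-1 by 5.11 ± 0.20 and 5.35 ± 0.20, and cth-1 by -1.53 ± 0.068 and -1.50 ± 0.068. Further apart were pud-4 (-5.72 ± 0.56 in wild type and -3.795 ± 0.56 in the mutant), lipl-3 (-2.41 ± 0.59 and 0.28 ± 0.59) and cul-6 (0.76 ± 0.16 and 0.054 ± 0.16). Both sets are examples and not a count. The difference between the effects was tested in the same fit. With limma 0 genes passed, with 386 genes (2.49%) at an unadjusted p under 0.05, and edgeR called 0. Of the 386, 118 were among the 1091 wild-type calls. Those calls were chosen on the wild-type change, which enters the difference, so nothing is read from this number. DESeq2 called 1, irg-5, with a log2 difference of 1.997 (DESeq2 adjusted p = 0.000457). irg-5 changed by 3.87 ± 0.24 in wild type and by 1.88 ± 0.24 in the mutant. The other 4 called genes of lowest p for the difference were F35E12.6 (0.63 ± 0.055 and 0.22 ± 0.055), ugt-19 (0.56 ± 0.13 and -0.37 ± 0.13), F09C8.1 (-1.07 ± 0.11 and -0.31 ± 0.11) and scl-5 (-1.98 ± 0.22 and -0.60 ± 0.22), whose differences did not pass. ugt-19 was itself not called without replicate number 1 or 2, control 1 or 2 or fluvastatin library 1, 2 or 3 (adjusted p up to 0.264) in wild type. F35E12.6 and irg-5 are neighbours on chromosome V. ugt-19 was called only with the replicate term.

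**Figure D5:**
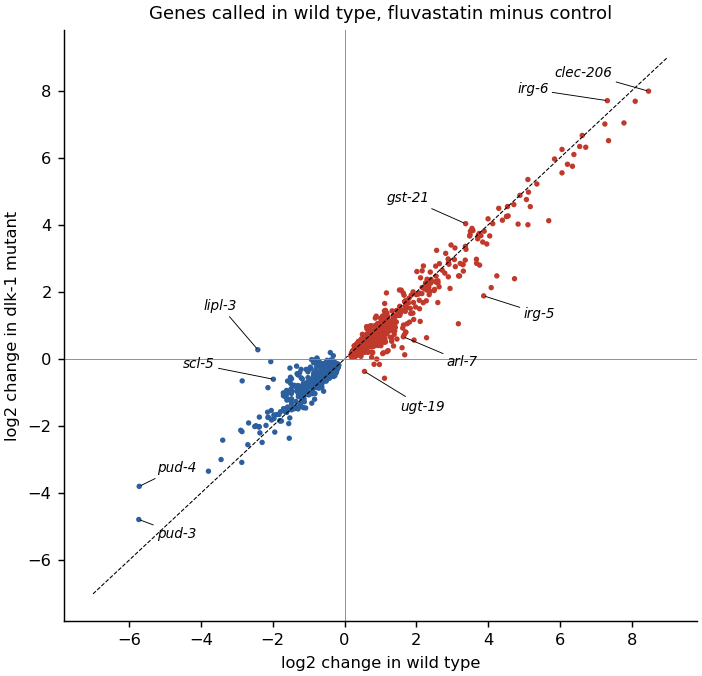
Log2 change of the 1091 genes called in wild type, on the x axis, against the log2 change of the same genes in the dlk-1 mutant, on the y axis, each fluvastatin minus control. Red points were called higher and blue points lower in wild type, and the dashed line marks equal changes. Most points lie near the line; irg-5, at 3.87 and 1.88, lies off it.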

How the data were processed

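RNA of whole worms was sequenced as 50 bp single reads from TruSeq RNA v2 libraries, which do not mark strand, per the labels' protocols. The submitters' processing notes list Bowtie and DESeq2 with no version and no role, and no build or annotation is stated in the labels used here. The deposited table holds a signal made by the authors, reads per transcript model divided by a size factor per library: 100% of values were whole reads within 0.01 read. Of 34873 models, the one with the highest mean over 12 libraries was kept for each of 30301 sequence names, of which 28960 were matched to the Ensembl 115 annotation of WBcel235 for names, coordinates and overlaps. At mean 50 or more, 287 genes shared values within 5% with another gene. No genome sequence was used, so no promoter or motif was searched.

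All 12 libraries were fitted together with limma 3.58.1 (R 4.3.3, trend and robust options) on log2(value + 1), with a term for group and a term for replicate number, after keeping the 15529 genes with at least 10 normalised reads in at least 3 libraries. Tests were two-sided, p-values were adjusted over all tested genes by the Benjamini-Hochberg method, and the threshold was 0.05; every adjusted p is from this fit unless another tool is named. The numbers come from the sample titles, and deviations from group means correlated at 0.555 to 0.887 between libraries of the same number, so they were taken as pairs; no label says what a number marks. Alternatives were no replicate term, the 6 wild-type libraries alone, other pseudocounts and filters, TMM scaling, summed models, edgeR 4.0.16 and DESeq2 1.42.0 on the recovered reads, and leaving out replicate numbers or single libraries.

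The comparison, the 59 gene lists (664 entries, 13 not found) and the naming rule were chosen with earlier results of these data known. The rule names genes of the statin and p38 literature, the largest rises and falls by fold and by reads, the lowest p-values, up to 4 called genes per list, or its lowest p where none passed, and the called genes of lowest p for the difference between genotypes. Depth was 9370975 to 11937829 reads per wild-type library. The main test was checked on simulated data, in which all genes had the same dispersion and both genotypes the same effect. That setting is simpler than these libraries, so the check does not bear on single calls.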

Additional observations from a re-analysis of the deposited data

How the results depend on the processing

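The replicate block decided the most calls. With no replicate block 216 genes were higher and 66 lower, against 586 and 505, and with the 6 wild-type libraries alone and no replicate block 142 and 27. Fits on the same libraries with other pseudocounts, filters, scaling, summed models or tools, all with the block, gave 522 to 598 higher and 395 to 527 lower, and the 6 wild-type libraries alone with the block 628 and 622. Leaving out a replicate number or a wild-type library gave 377 to 548 higher and 216 to 419 lower, with fewer samples in each fit. The difference between genotypes had 0 genes with limma, 0 in each of the 9 leave-outs, 0 with edgeR and 1 with DESeq2. Of 165 named genes that were called, 55 passed in all 20 alternatives, 61 were lost in at least 1 of 9 leave-outs, and 0 reversed. Genes with few reads have large errors, and counts of list members move with single libraries. The cause of these differences was not tested.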
